A study of Homo sapiens with 6 samples.

Results

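Aldehyde dehydrogenases (ALDH) oxidise aldehydes, which arise from alcohols, from retinol and from damaged lipids, to carboxylic acids. Glutathione transferases (GST, and MGST for the microsomal, membrane-bound enzymes) attach glutathione to reactive compounds so that the cell can export them. A549, a long-established cell line from a human lung adenocarcinoma, is known for high levels of several of these enzymes. The 10 genes described here, 5 ALDH genes and 5 GST or MGST genes, were taken by symbol from the 60624 Ensembl genes of the deposited table: ALDH1A1, ALDH1A3, ALDH2, ALDH3A1, ALDH3A2, GSTP1, GSTM4, GSTO1, MGST1 and MGST3. They were chosen with earlier results of these data known, so counts among them are a description. All 10 were found and all 10 passed the filter on low values, a mean of at least 1 TPM (a length-corrected measure of transcript abundance, scaled to the same total in each library), which left 14778 genes for testing.

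RNA-seq was performed on 3 siCEP20 samples, A549 cells transfected with small interfering RNA (siRNA) against the centrosomal protein gene CEP20, and on 3 siCTR samples transfected with a control siRNA, each for 3 days. No other treatment or allele is labelled, and 1 label field names a plasmid transfection for all 6 samples. The labels do not name which siRNA sequence was used or whether the samples came from separate cultures, so that p-values measure only the spread between these samples, which may be technical. As TPM is corrected for length, levels of different genes can be set side by side, but it keeps no trace of sequencing depth, which is unknown here. In these bulk samples, fewer cells of a kind and less RNA per cell cannot be told apart.

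CEP20 was at 29.2, 30.5 and 35.1 TPM in siCTR and 16.2, 15.3 and 17.3 TPM in siCEP20 samples, lower in every siCEP20 library (51.4% of the control mean was left; two-sided exact permutation test p = 0.1, the smallest that 3 samples against 3 allow). All 6 markers of the epithelial line were detected. Their summed level ran from 7029 to 7333 TPM in siCTR and from 8474 to 8709 TPM in siCEP20 samples. Most of that sum was KRT7, KRT18 and KRT8, with siCTR means of 3893, 1593 and 1587 TPM. EPCAM was near the filter of 1 TPM in siCTR samples, at 0.834, 1.24 and 1.05 TPM. In siCEP20 samples it was at 3.28, 3.85 and 3.01 TPM. At an adjusted p-value under 0.05, 6 of 6 markers were higher in siCEP20 samples, beside 30.2% of all tested genes as deposited. With median-of-ratios scaling 3 of 6 were. Of the other cell types, all 4 endothelial markers and 4 of 5 fibroblast markers stayed below 1 TPM in every library. The summed fibroblast list ran from 5.36 to 6.02 TPM in siCTR and from 17.7 to 19.9 TPM in siCEP20 samples, nearly all of it COL1A1, while DCN and COL1A2 were listed at 0 in every library. The leukocyte list ran from 15.6 to 23.7 and from 27.6 to 46.3 TPM, most of it CD68, with CD3E listed at 0 throughout. The part of these markers in the results was not tested.

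The mean levels of the 10 genes in siCTR samples spanned from 11.7 TPM for GSTM4 to 2008 TPM for ALDH1A1. ALDH1A1 ranked 44, GSTP1 103, MGST1 116 and ALDH3A1 126 by mean TPM among 19895 protein-coding genes of the table. GSTO1 and ALDH3A2, which ranked 904 and 785, and MGST3, at 1110, formed a middle tier. ALDH2, ALDH1A3 and GSTM4 were the lowest, with ranks of 3647, 6266 and 7650. In the siCTR libraries ALDH1A1 stood above every other gene, ALDH3A1 and GSTP1 overlapped with each other, and MGST1 lay below both of these. In the siCEP20 libraries the order of these 4 genes was ALDH1A1, MGST1, GSTP1 and ALDH3A1, and no neighbours among them overlapped. GSTO1 overlapped with ALDH3A2 in the siCTR libraries and lay below both ALDH3A2 and MGST3 in every siCEP20 library.

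**Figure D1:**
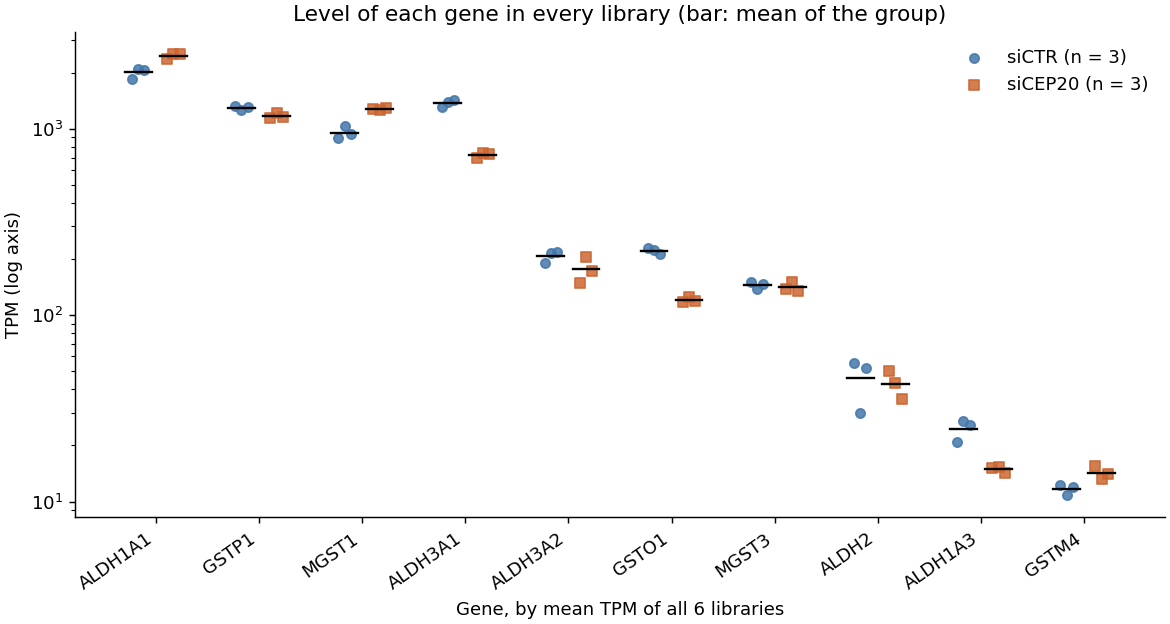
TPM of each of the 10 genes in every library, on a log axis, for 3 siCTR samples (circles) and 3 siCEP20 samples (squares), with a bar at each group's mean. ALDH3A1, GSTO1 and ALDH1A3 lie lower in all siCEP20 libraries, ALDH1A1, MGST1 and, by less, GSTM4 lie higher, and the groups of ALDH2, ALDH3A2 and MGST3 overlap.

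The 10 genes did not move one way. At an adjusted p-value under 0.05 (limma on log2(TPM + 1), Benjamini-Hochberg adjustment over all tested genes), 3 of 10 were higher in siCEP20 samples, beside 30.2% of all tested genes, and 4 of 10 were lower, beside 13.2% (43.3% in either direction). With the study's fold change thresholds added (over 1.5 or under 0.67), 3 of 10 were called lower, ALDH3A1, GSTO1 and ALDH1A3, beside 4.61% of all tested genes. None of the 10 was called higher, beside 11.2%, although 3 were higher at an unadjusted p-value under 0.05. The siCEP20 values lay all above the siCTR values for 3 genes (38.4% of all tested genes) and all below for 4 genes (17.0%, and 55.4% in either direction). The median log2 fold change of the 10 was -0.10, against 0.13 for all tested genes. Of all calls with the fold change thresholds 70.9% were higher, a share that went to 44.8% with median-of-ratios scaling and 47.6% with quantile normalization. Under these scalings 3 of the 10 genes were called lower, beside 1103 and 1016 of 14778 tested genes. Calls of higher among the 10 numbered 0 and 1, beside 894 and 923. At an adjusted p-value alone, 2 of the 10 passed as higher under both, and 6 and 4 as lower. No share of all tested genes is given beside these last counts, so they are not a result about the 10.

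ALDH3A1, a cytosolic enzyme that oxidises medium-chain and aromatic aldehydes, was the ALDH gene with the largest decrease. Its level was 1303, 1397 and 1432 TPM in the siCTR samples and 699, 743 and 731 TPM in the siCEP20 samples. Every siCEP20 value lay far below every siCTR value, and the spread within each group was small (1377 ± 67.0 against 724 ± 22.6 TPM, SD, n = 3 each). The level left was 52.6% of the control mean, a log2 fold change of -0.93 ± 0.0523 (SE, limma, adjusted p = 3.12e-05). The ALDH3A1 gene (ENSG00000108602) spans bases 19737984 to 19748943 of chromosome 17 (hg38, minus strand), and the positions of the other genes follow the same build. A long noncoding RNA, ENSG00000264785, overlaps 559 bases of it on the opposite strand and did not exceed 1.87 TPM in any library.

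ALDH1A1 and ALDH1A3 both oxidise retinaldehyde to retinoic acid, and they moved in opposite directions. ALDH1A1 (ENSG00000165092, chromosome 9 from 72900671 to 73080442) was at 1848, 2101 and 2074 TPM in the siCTR samples and at 2371, 2506 and 2503 TPM in the siCEP20 samples. It rose to 123% of the control mean without overlap between groups, a log2 fold change of 0.29 ± 0.0592 (SE, limma, adjusted p = 0.00497), which is 0.16 above the median of all tested genes. ALDH1A3 (ENSG00000184254, chromosome 15 from 100877714 to 100916626) had far lower levels, at 20.9, 27.0 and 25.7 TPM in the siCTR samples and 15.1, 15.3 and 14.3 TPM in the siCEP20 samples. Its siCEP20 values were tightly grouped and all below the siCTR values, with 60.6% of the control mean left. On the log2 scale the difference was -0.68 ± 0.104 (SE, limma, adjusted p = 0.00136). The antisense gene ALDH1A3-AS1 shares 24284 bases of its span, on the opposite strand. It was at 2.77, 2.57 and 2.86 TPM in siCTR and 4.49, 4.89 and 3.69 TPM in siCEP20 samples, higher in every siCEP20 library. Whether strand was used in the quantification is not given in the sources used here, where the methods describe a library that keeps strand and the labels name another library kit, so reads of the pair may not be told apart.

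ALDH2, the mitochondrial enzyme that oxidises acetaldehyde, and ALDH3A2, the fatty aldehyde dehydrogenase of the endoplasmic reticulum, did not pass the test. ALDH2 (ENSG00000111275, chromosome 12 from 111766887 to 111817532) was at 55.7, 29.7 and 52.0 TPM in siCTR and 50.4, 43.0 and 35.5 TPM in siCEP20 samples. Relative to their mean, its siCTR values spread most of the 10 genes, with siCTR replicate 2 far below the other two, and the groups overlapped. The log2 fold change of -0.05 had a 95% interval from -0.57 to 0.47 (adjusted p = 0.867 from limma), an interval that nearly reaches the study's lower threshold at -0.58. Without siCTR replicate 1, siCTR replicate 3 or siCEP20 replicate 3 the sign of this value turned, to 0.11, 0.06 and 0.07. ALDH3A2 (ENSG00000072210, chromosome 17 from 19648136 to 19685760) was at 189.8, 215 and 218 TPM in siCTR and 149, 206 and 173 TPM in siCEP20 samples. Here siCEP20 replicate 2 lay within the siCTR values. The log2 fold change was -0.25, with a 95% interval from -0.51 to 0.01 (adjusted p = 0.112 from limma), and it passed with median-of-ratios scaling (-0.40, adjusted p = 0.0117 from limma), with quantile normalization (-0.30, adjusted p = 0.0429 from limma) and without siCEP20 replicate 2 (-0.37, adjusted p = 0.0214 from limma). Without siCEP20 replicate 1 it was smaller, at -0.13 (adjusted p = 0.315 from limma).

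The make-up of the ALDH transcripts differed between the groups, while their sums overlapped. The summed TPM of the 19 ALDH genes was 3851, 4184 and 4230.4 in siCTR and 3750, 3996 and 3910.4 in siCEP20 samples. The siCTR libraries had 47.98%, 50.2% and 49.04% of that sum in ALDH1A1, and the siCEP20 libraries had 63.2%, 62.7% and 64.0%. ALDH3A1 held 33.8%, 33.4% and 33.8% under siCTR, against 18.6%, 18.6% and 18.7% under siCEP20. The shares within a group therefore differed far less than the groups did. In the deposited values the ratio of ALDH1A1 to ALDH3A1 was 1.42, 1.5 and 1.45 under siCTR and 3.39, 3.37 and 3.42 under siCEP20. Multiplying a whole library by a single factor leaves this ratio as it is. Methods that shift genes of a library by different amounts, such as quantile normalization, can change it. This ratio was chosen after its values were seen and is given without a test.

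**Figure D2:**
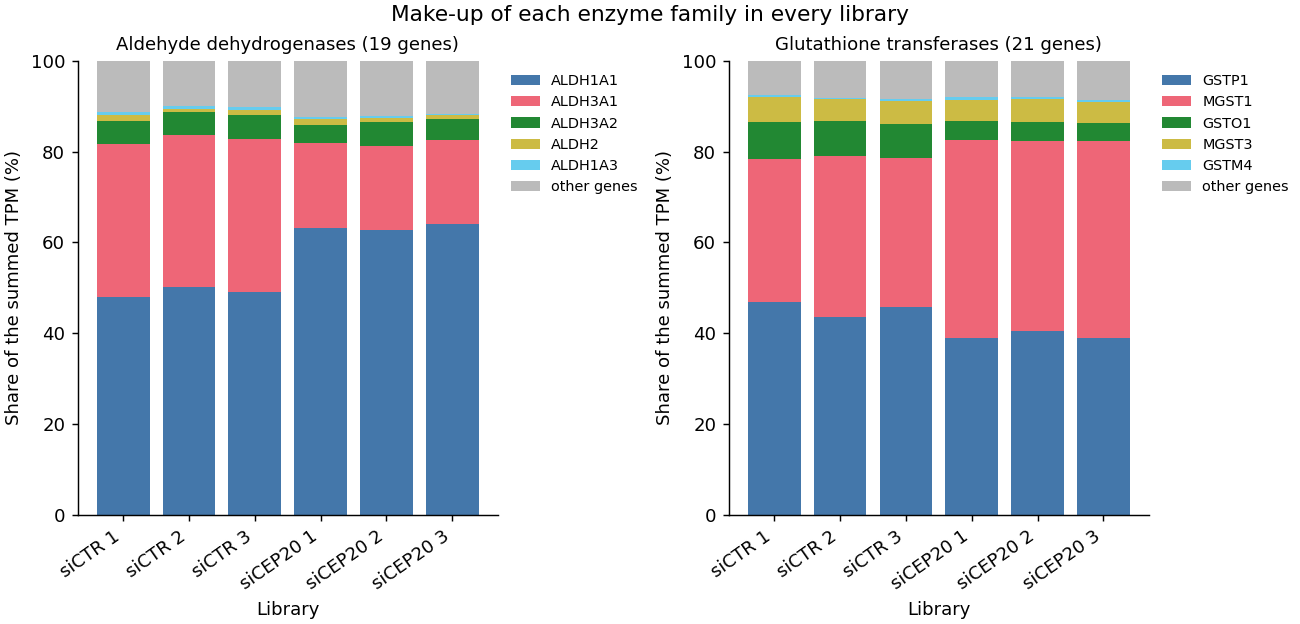
Share of the summed TPM (percent, y axis) taken by each gene in each of the 6 libraries (x axis), for 19 aldehyde dehydrogenase genes (left) and 21 glutathione transferase genes (right). ALDH1A1 goes from 49.1% ± 1.12 to 63.3% ± 0.647 of its family and ALDH3A1 from 33.7% ± 0.253 to 18.6% ± 0.0510 (SD, n = 3), and on the right MGST1 replaces GSTP1 as the gene with the larger share.

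Among the 5 transferases described here, GSTO1, an omega class enzyme with thiol transferase and dehydroascorbate reductase activity, had the largest decrease. GSTO1 (ENSG00000148834, chromosome 10 from 104235356 to 104267459) was at 229, 223 and 213 TPM in the siCTR samples and 117, 126 and 118 TPM in the siCEP20 samples. The groups were far apart beside a coefficient of variation of 3.75% in either group, and 54.4% of the control mean was left. On the log2 scale the difference was -0.87 ± 0.0558 (SE, limma, adjusted p = 4.37e-05). The neighbouring omega class gene GSTO2 was between 0.790 and 2.26 TPM in all libraries.

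GSTP1, the pi class enzyme and the most abundant cytosolic transferase in these libraries, was lower by a small margin in the deposited values. GSTP1 (ENSG00000084207, chromosome 11 from 67583742 to 67586656) was at 1315, 1263 and 1310.3 TPM in siCTR and 1136, 1208 and 1151 TPM in siCEP20 samples. The siCEP20 values lay all below the siCTR values, with 89.9% of the control mean left. On the log2 scale the difference was -0.15 ± 0.0455 (SE, limma, adjusted p = 0.0260), and it was larger with median-of-ratios scaling, at -0.30 (adjusted p = 0.00277). The direction turned with quantile normalization, to 0.07, and once dependence on length and GC content was removed by a loess fit, to 0.05, and neither of these values passed. With 1 library left out, its adjusted p lay between 0.0310 and 0.0750 and stayed under 0.05 in 2 of 6 fits. Those were the fits without siCTR replicate 2 (adjusted p = 0.0448) or siCEP20 replicate 2 (adjusted p = 0.0310). GSTP1 also did not pass without a filter on low values (adjusted p = 0.0863 from limma) or without the trend in limma's moderation (adjusted p = 0.106).

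GSTM4, a mu class enzyme, was the lowest of the 10 genes. GSTM4 (ENSG00000168765, chromosome 1 from 109656099 to 109665496) was at 12.3, 10.8 and 11.9 TPM in siCTR and 15.6, 13.3 and 14.0 TPM in siCEP20 samples. All siCEP20 values were higher, with a log2 fold change of 0.27 ± 0.0935 (SE, limma, adjusted p = 0.0473). It did not pass in any of the 6 fits with 1 library left out, which had fewer samples and log2 fold changes from 0.21 to 0.32 (adjusted p between 0.0541 and 0.155), nor without a filter on low values (adjusted p = 0.0845). With median-of-ratios scaling it was 0.13 (adjusted p = 0.347) and with quantile normalization 0.11 (adjusted p = 0.426). After the length and GC correction it was 0.38 and passed (adjusted p = 0.0166 from limma). The mu class genes are close copies of each other, so reads of GSTM4 can have been placed in GSTM1, GSTM2 or GSTM3.

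The microsomal enzymes belong to a separate family of membrane proteins (MAPEG), and their 2 members here differed. MGST1 (ENSG00000008394, chromosome 12 from 16347142 to 16609259) was at 890.2, 1029 and 937 TPM in the siCTR samples and 1273, 1252 and 1284 TPM in the siCEP20 samples. It rose to 133% of the control mean with separate groups, a log2 fold change of 0.42 ± 0.0587 (SE, limma, adjusted p = 0.000945), and with quantile normalization it passed the fold change threshold too, at 0.61. MGST3 (ENSG00000143198, chromosome 1 from 165631213 to 165661796) was at 150.4, 139 and 147 TPM in siCTR and 138, 151 and 135 TPM in siCEP20 samples. Its groups overlapped and its log2 fold change was -0.04, with a 95% interval from -0.19 to 0.10 (adjusted p = 0.621 from limma), an interval that lies within the study's fold change thresholds on both sides. With median-of-ratios scaling MGST3 was at -0.19 (adjusted p = 0.0491 from limma), and after the length and GC correction at 0.06.

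The summed TPM of the 21 matched genes named GST or MGST was 2809, 2898 and 2859 in siCTR and 2913, 2983 and 2958 in siCEP20 samples. GSTP1 held 46.8%, 43.6% and 45.8% of that sum under siCTR, against 39.0%, 40.5% and 38.9% under siCEP20. MGST1 held 31.7%, 35.5% and 32.8% under siCTR, against 43.7%, 41.97% and 43.4% under siCEP20. GSTP1 was thus above MGST1 in each siCTR library and below it in each siCEP20 library, with a ratio of GSTP1 to MGST1 of 1.48, 1.23 and 1.40 in the first group and 0.893, 0.965 and 0.897 in the other. GSTO1 went from a mean of 7.76% ± 0.362 of the sum to 4.08% ± 0.114 (SD, n = 3 each). These shares and ratios were likewise chosen after their values were seen.

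**Figure D3:**
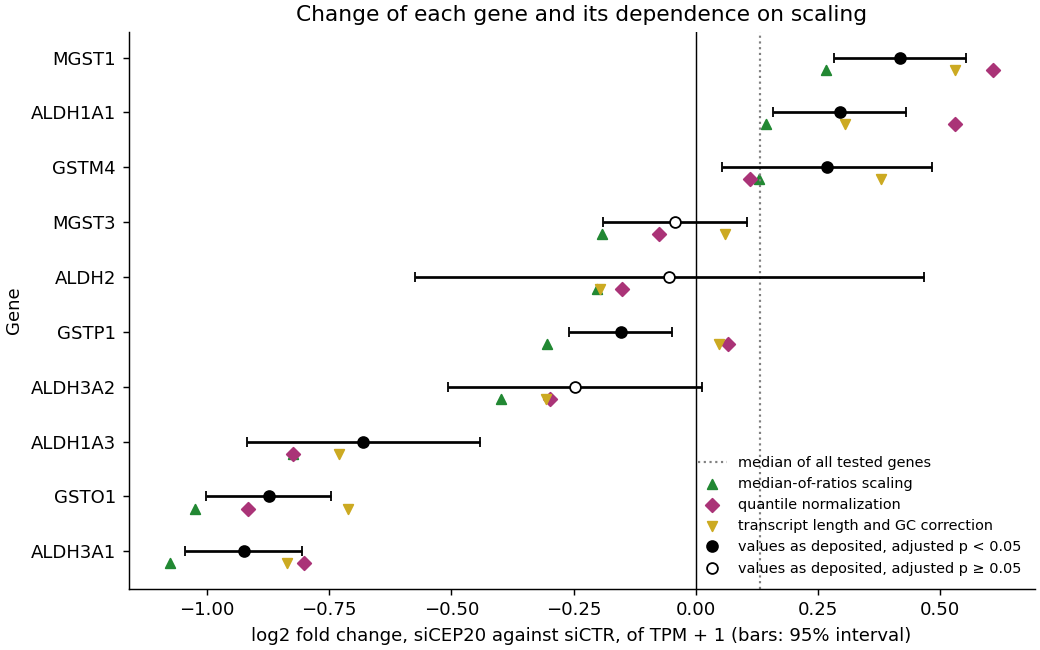
Log2 fold change of each of the 10 genes (siCEP20 against siCTR, on TPM + 1) with its 95% interval, filled where the adjusted p-value was under 0.05, beside the values under 3 other scalings. ALDH3A1, GSTO1 and ALDH1A3 lie between -1.08 and -0.68 and ALDH1A1, MGST1 and GSTM4 above 0 in all 4, while GSTP1 lies at -0.15 and -0.30 in 2 of them and at 0.07 and 0.05 with quantile normalization and the length and GC correction, and MGST3 lies above 0 after that correction alone.

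Promoter sequences were compared because glutathione transferase genes are textbook targets of the transcription factor NRF2, which binds the antioxidant response element. Windows of 300 bases around the RefSeq transcription start (GRCh38.p14) were available for 8 of the 10 genes, all but ALDH2 and ALDH3A1, with 11 windows in all. The core of the element, TGACNNNGC on either strand, was found in windows of 3 of these 8 genes and in 13.3% of all 35116 windows of the table. A gene counts if any of its windows matches. Counts of genes and shares of windows are therefore unlike measures, here and for the other motifs below. Each match is printed with 10 bases on either side, 5′ to 3′ on the gene's strand, with the core in capitals, since the matches lie in GSTO1, which fell, in GSTP1, whose direction depended on the normalization, and in MGST1, which rose.

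GSTO1, chr10:104254656-104254684, plus strand: ggcggagggaTGACTGAGCatttataact
GSTO1, chr10:104254721-104254749, plus strand: cgagatgcttTGACACAGCcccttaagat
GSTP1, chr11:67583736-67583764, plus strand: gccggcgccgTGACTCAGCactggggcgg
MGST1, chr12:16347135-16347163, plus strand: ggggacatcgTGACAAAGCaaattgtctg

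In GSTO1 the cores begin 226 and 161 bases before the RefSeq start, in GSTP1 66 bases before it, and in MGST1 at base 31 counted from 1 of its 3 listed starts. The GSTP1 core also holds the AP-1 site TGACTCA, which was found in 4.95% of all windows and in no other of the 8 genes. The core of the xenobiotic response element, TNGCGTG on either strand, was found in none of the 8 genes and in 5.51% of all windows. The CCAAT box was found in ALDH1A1, ALDH1A3, ALDH3A2 and MGST1, and in 34.6% of all windows. The genes with the antioxidant core thus differed in direction, and these matches are letters in a window, not sites shown to be bound.

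The rest of each family was followed with lists written from general knowledge, whose counts stand beside 30.2% higher and 13.2% lower among all tested genes. For calls with the fold change thresholds added, the shares were 11.2% higher and 4.61% lower. Most list counts shifted towards lower with median-of-ratios scaling, under which the median of all tested genes fell too, from 0.13 to 9.42e-05. No share of all tested genes at an adjusted p-value under 0.05 is given for the other scalings. List counts under them therefore have none beside them and are not results about a list. Of the 14 other ALDH genes, 10 reached the mean TPM needed for testing. At an adjusted p-value under 0.05, 1 of them was higher and 3 were lower, and these are named here after their values were seen. ALDH3B1, which oxidises lipid-derived aldehydes, rose from 159 ± 7.01 to 217 ± 8.71 TPM. ALDH5A1, the succinic semialdehyde dehydrogenase, fell from 7.19 ± 1.2 to 4.99 ± 0.699 TPM, ALDH9A1 from 44.7 ± 2.56 to 36.3 ± 0.570 TPM and ALDH16A1 from 31.8 ± 1.19 to 23.6 ± 1.51 TPM (SD, n = 3 each). None of the 10 was called with the fold change thresholds. Over the 15 tested ALDH genes the median was -0.05 on the log2 scale.

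Of the 20 listed cytosolic and mitochondrial GST genes, 19 were matched by symbol and 9 were tested. Of the 10 below the filter, 6 were listed at 0 in every library, among them GSTM5 and HPGDS. None of the 6 tested GST genes outside the 10 passed the test in limma, and 2 had an unadjusted p-value under 0.05. With median-of-ratios scaling 3 of these 6 passed as lower, GSTA4, GSTZ1 and GSTK1, and with quantile normalization 2, GSTA4 and GSTZ1, all named after their values were seen. GSTK1, the kappa class enzyme, was the most abundant of them, at 88.1 ± 7.15 TPM in siCTR and 84.7 ± 5.21 TPM in siCEP20 samples. In the MAPEG list, 3 of 5 tested genes were higher in limma and 0 lower, also at an unadjusted p-value under 0.05, while with median-of-ratios scaling 2 were higher and 1, MGST3, was lower. Besides MGST1 these were PTGES, the inducible prostaglandin E synthase, which rose from 302 ± 20.6 to 377 ± 9.93 TPM (log2 fold change 0.32, adjusted p = 0.00370 from limma, or 0.0781 with median-of-ratios scaling), and MGST2, from 50.5 ± 1.77 to 71.6 ± 9.95 TPM (log2 fold change 0.49, adjusted p = 0.00454 from limma). The median of the 5 tested genes was 0.42.

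Transferases depend on the supply of glutathione. In a list of 12 genes of glutathione supply and breakdown, all tested, 1 was higher and 5 were lower at an adjusted p-value under 0.05. Among the 5 are CHAC1 and CHAC2, which break glutathione down. Neither these counts nor the medians below therefore measure supply alone. With median-of-ratios scaling 0 were higher and 8 lower, with quantile normalization 1 and 8, and with the length and GC correction 0 and 6. The medians of the list were then -0.36, -0.30 and -0.22, beside 9.42e-05, 0.0076 and 0.12 for all tested genes. In the deposited values the median was -0.21 on the log2 scale, beside 0.13 for all tested genes. There 2 of the 12 were called lower, beside 4.61% of all tested genes. SLC3A2, the heavy chain that the cystine importer shares with other amino acid transporters, fell from 1114 ± 41.5 to 734 ± 29.2 TPM (a log2 change of -0.60, adjusted p = 0.000103 from limma). CHAC2, which breaks glutathione down, fell from 19.1 ± 2.31 to 11.3 ± 0.979 TPM (-0.70). GCLC, the catalytic subunit of the first enzyme of glutathione synthesis, fell from 146 ± 9.90 to 122 ± 8.15 TPM (-0.27), while GSR, glutathione reductase, was at 271 ± 30.6 and 283 ± 30.6 TPM with overlapping groups. SLC7A11, the light chain of the cystine importer, went from 52.0 ± 6.65 to 68.0 ± 4.65 TPM (0.39) and passed as higher in the deposited values, but not with median-of-ratios scaling (0.24, adjusted p = 0.0632 from limma) or the length and GC correction (0.22, adjusted p = 0.0527 from limma). It is named, like CHAC1 and GGT7, after its value was seen. CHAC1, which also degrades glutathione, fell from 75.7 ± 6.22 to 53.9 ± 3.49 TPM (-0.48), and GGT7, of the gamma-glutamyltransferase family, from 11.7 ± 0.434 to 8.63 ± 1.13 TPM (-0.41).

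In the list for export and processing of glutathione conjugates, 9 of 11 genes were tested, 2 were higher and 1 was lower, and the median was -0.12 on the log2 scale. With median-of-ratios scaling 2 were higher and 5 lower (median -0.27), and with quantile normalization or the length and GC correction 2 were higher and 3 lower. The exporter ABCC3 was called higher, at 284, 320 and 321 TPM in siCTR and 475, 525 and 492 TPM in siCEP20 samples, a log2 fold change of 0.69 (adjusted p = 0.000170 from limma). The related exporters ABCC2 and ABCC1 did not pass in the deposited values, at 164 ± 14.3 against 151 ± 8.10 and 127 ± 2.13 against 137 ± 3.29 TPM, but ABCC2 passed as lower with median-of-ratios scaling (-0.27, adjusted p = 0.00733 from limma) and the length and GC correction (-0.22, adjusted p = 0.0294 from limma). The exporter ABCC4, named after its value was seen, fell from 31.1 ± 2.29 to 26.5 ± 1.24 TPM. Of the 6 tested peroxidases that use glutathione, 3 were higher and 2 lower, with a median of 0.08, and none was called. With median-of-ratios scaling 2 were higher and 2 lower (median -0.07), and with the length and GC correction 3 and 1. GPX4, the phospholipid hydroperoxidase, rose from 694 ± 8.36 to 789.6 ± 29.0 TPM, while GPX1 fell from 431 ± 45.1 to 314 ± 35.5 TPM and PRDX6 from 331 ± 6.47 to 235 ± 2.96 TPM. GPX4 did not pass with median-of-ratios scaling (0.04, adjusted p = 0.620 from limma), and GPX1 did not with the length and GC correction (-0.28, adjusted p = 0.0733 from limma). The other peroxidases that rose were GPX2, from 235 ± 10.5 to 318 ± 28.7 TPM, and GPX3, from 36.1 ± 0.297 to 47.8 ± 2.72 TPM, both named after their values were seen.

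Retinoid metabolism surrounds ALDH1A1 and ALDH1A3, and its genes moved both ways. Of 7 tested alcohol and retinol dehydrogenases, 1 was higher and 3 were lower, or 4 with median-of-ratios scaling or quantile normalization, and the median was -0.22 on the log2 scale. RDH10, which oxidises retinol to the retinaldehyde that ALDH1A enzymes use, was called lower. It was at 20.5, 20.9 and 21.7 TPM in siCTR and 8.79, 9.48 and 11.2 TPM in siCEP20 samples, without overlap, a log2 fold change of -1.03 ± 0.0988 (SE, limma, adjusted p = 0.000175). ADH5, which oxidises the glutathione adduct of formaldehyde, fell from 81.5 ± 4.01 to 65.7 ± 3.82 TPM, while DHRS3 and RDH11, the most abundant of this list, did not pass the test. DHRS4 fell from 75.6 ± 2.76 to 55.3 ± 1.72 TPM and RDH14 rose from 30.7 ± 1.45 to 38.8 ± 2.89 TPM, both named after their values were seen.

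In the retinoic acid list, 11 of 16 genes were tested, 3 were higher and 3 lower, and the median was 0.03, or -0.11 with median-of-ratios scaling and -0.10 with quantile normalization, where the counts were again 3 and 3. STRA6, the retinol importer, fell from 177 ± 9.65 to 141 ± 10.9 TPM. With the fold change thresholds, 3 genes were called higher, CRABP2, RARA and RARB, and 1 lower, beside 11.2% and 4.61% of all tested genes. CRABP2, a carrier of retinoic acid, rose from 10.3 ± 0.793 to 18.6 ± 1.66 TPM (log2 fold change 0.80), and the receptor genes RARA from 28.3 ± 1.78 to 57.2 ± 2.39 TPM (0.99) and RARB from 9.54 ± 1.67 to 17.0 ± 0.607 TPM (0.78). Their adjusted p-values from limma were 0.000494, 6.29e-05 and 0.00131. RXRA, a partner receptor, was at 28.8 ± 1.05 and 29.2 ± 0.686 TPM, and RXRB, named after its value was seen, was lower (-0.34). RARG (0.03), RARRES1 (0.15), CYP26A1 (-0.11) and CYP26B1 (0.40), also named after their values were seen, did not pass the test. ALDH1A2, the remaining gene of the ALDH1A group, stayed at or below 1.60 TPM and was not tested.

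**Figure D4:**
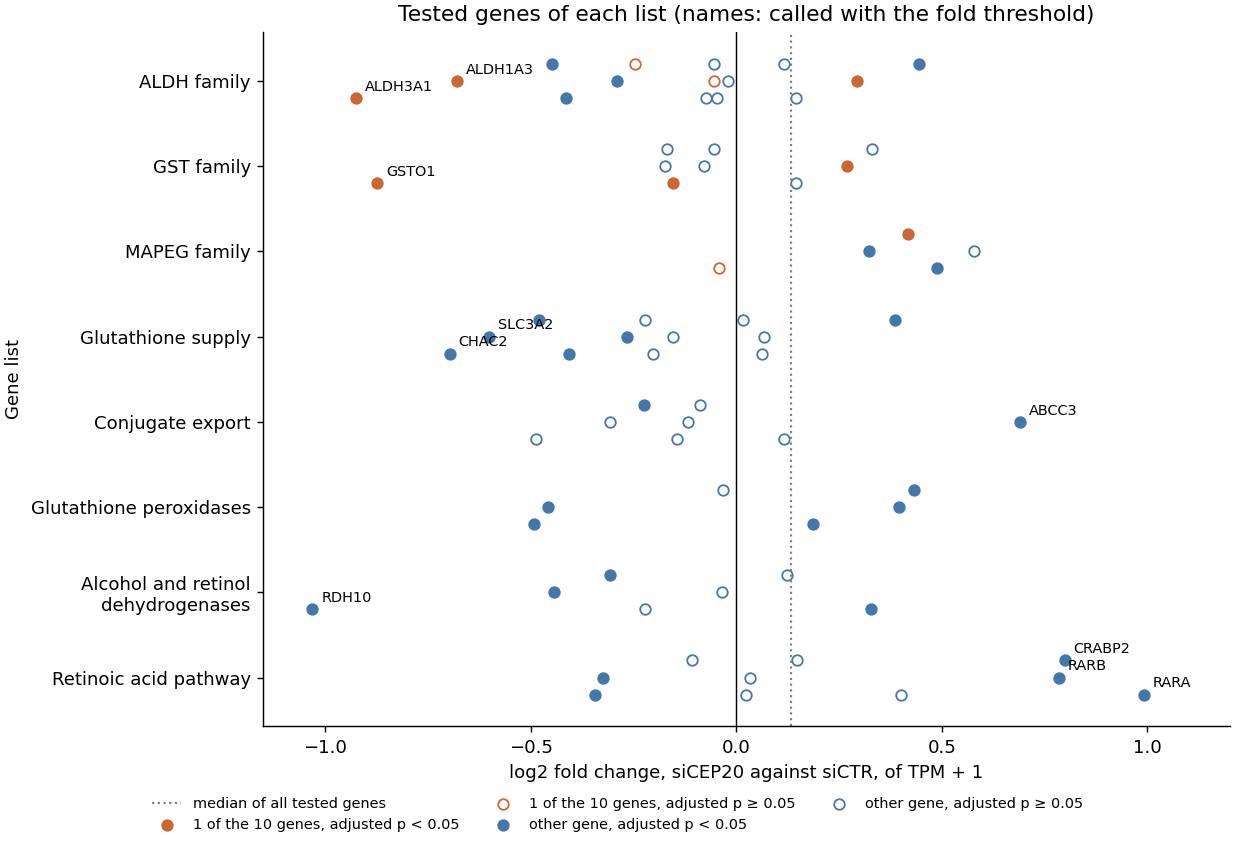
Log2 fold change (siCEP20 against siCTR, on TPM + 1, x axis) of the tested genes of 8 lists (rows), without genes not reported here, filled where the adjusted p-value was under 0.05 and named where the gene was also called with the fold change thresholds. The 10 genes of this report are in orange, and the dotted line is the median of all tested genes, 0.13. Of the filled genes, GSTP1 turns positive with quantile normalization and with the length and GC correction.

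The genes whose pattern over the 6 samples was most like that of the most abundant member of each family were sought among 12187 tested protein-coding genes outside the lists. For ALDH1A1 these were ANKRD17, COG1 and SPTBN1, with Pearson correlations of log2(TPM + 1) from 0.998 to 0.999 over 6 samples, and 82 genes exceeded 0.99. For GSTP1 they were H2AZ2, SMDT1 and PSMC2, with correlations from 0.994 to 0.996, and 13 genes exceeded 0.99. With 2 groups of 3 libraries, these values mostly follow the difference between groups, and they are a description.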

How the data were processed

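The deposited table holds TPM, which the authors computed per Ensembl gene with StringTie 2.0 after trimming with fastp 0.20.1 and alignment to hg38 with HISAT2 2.1.0 (versions from the submitters' processing notes). The annotation release, strand setting and read counts are not given in the sources used here, so depth is unknown and precision rests on 3 replicates a group. The labels and the paper differ on medium, RNA kit and library kit.

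Genes were named with GENCODE 44 (60370 of 60624 rows). Rows whose mean reached 1 TPM were fitted in all 6 libraries as log2(TPM + 1) with limma 3.58.1 in R 4.3.3 (moderated with a trend, no rescaling, no replicate term), with Benjamini-Hochberg adjustment. A gene passed at an adjusted p-value under 0.05 and was called with a fold change over 1.5 or under 0.67 added. Fold changes on this scale understate those of low genes. The study's own test, DESeq2, needs read counts and was not used. Python 3.11.15, scipy 1.17.1 and matplotlib 3.10.9 served for the rest. Named by rule are the 10 genes, CEP20, and in each list the called genes and the 3 most abundant. The rule also covers 3 genes of like pattern for 1 gene of each family. The text names other genes outside this rule, many of them after their values were seen. The members and lists were chosen with earlier results of these data known. On simulated data (14768 genes), 56.1% of 1.5-fold, 89.9% of 2-fold and 100% of 4-fold changes passed in the right direction. With the fold change thresholds added, 4 unchanged genes were called, and unchanged genes that passed without them were not counted. Only 66, 69 and 65 genes were changed, all with siCTR means well above the filter, while 43.3% of tested genes passed in the deposited values. The recovery therefore does not describe low genes. The alternatives were other pseudocounts, filters, scalings, thresholds and moderation, a replicate block, a loess fit that removes dependence on transcript length and GC content, and each library left out. A few genes of the lists are not reported here and enter only the counts and medians of their lists.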

Additional observations from a re-analysis of the deposited data

How the results depend on the processing

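Over 16 alternatives, ALDH3A1, GSTO1, ALDH1A3, ALDH1A1 and MGST1 kept their direction and an adjusted p-value under 0.05 in each. Those that changed only the threshold for a call reuse the main fit, so they could not alter these values. The log2 fold change ran from -1.08 to -0.80 for ALDH3A1, from -1.02 to -0.71 for GSTO1, from -0.82 to -0.61 for ALDH1A3, from 0.14 to 0.53 for ALDH1A1 and from 0.27 to 0.61 for MGST1. The number of the 10 genes called higher was 0, but 1 with quantile normalization and 3 at an adjusted p-value alone. The number called lower was 3, but 4 at an adjusted p-value alone and 0 with a fold change of 2 required, where CEP20 at -0.92 was not called either, and 3 with any library left out. CEP20 ran from -0.97 to -0.84 with 1 library left out. The log2 fold change of ALDH2 turned sign (0.11 without siCTR replicate 1, 0.06 without siCTR replicate 3, 0.07 without siCEP20 replicate 3) and ran from -0.33 to 0.11 with 1 library left out. The log2 fold change of GSTP1 turned to 0.066 with quantile normalization and 0.049 with the transcript length and GC correction, and that of MGST3 to 0.060 with the transcript length and GC correction, and the cause was not tested.

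With the replicate number as a block, ALDH3A2 passed as well (log2 fold change -0.25, adjusted p = 0.0358 from limma). In that fit 3 genes were higher and 5 lower, with no other change of a call. These counts have no share of all tested genes in that fit beside them, so they are not a result about these genes. Deviations of same-numbered libraries had correlations of 0.157, -0.0614 and -0.0623, so the numbers were not taken to pair the samples, and siCTR replicate 2 correlated best with siCEP20 replicate 3. Over all tested genes, 1659 were called higher and 682 lower, against 894 and 1103 with median-of-ratios scaling, 923 and 1016 with quantile normalization, and 261 and 147 with a fold change of 2. The median of all tested genes was 0.13, and with median-of-ratios scaling 9.42e-05.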

Other observations

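ALDH7A1, singled out after its values were seen, shared the scatter of ALDH2 within groups. It was at 37.7, 20.6 and 32.7 TPM in siCTR and at 35.03, 30.4 and 20.4 TPM in siCEP20 samples, so that siCTR replicate 2 and siCEP20 replicate 3 were the lowest library of their group for both genes. Its log2 fold change was -0.07 (adjusted p = 0.832 from limma).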
